A study of Tursiops truncatus with 17 samples.

Results

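The DDX and DHX helicases of the bottlenose dolphin (Tursiops truncatus) cerebral cortex were examined in dolphins collected in 2 kinds of season. Members were the protein-coding rows whose symbol begins with DDX or DHX followed by a number. DDX58, DDX60 and DHX58 were left out by the rule, which gave 48 members, 33 DDX and 15 DHX, among 16550 protein-coding genes and 21265 genes in all. The rule used names alone and no measured value, though it was chosen with earlier results of these data known. One member, listed first as INTS6L and second as DDX26B, is a paralog of an Integrator complex subunit and not a helicase of this family, and it was kept because the rule takes either name.

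Messenger RNA was sequenced from 17 libraries, 1 from each dolphin, of frozen archived necropsy cortex. The groups were 8 dolphins labelled non-bloom season and 9 labelled bloom season, all with the genotype label WT, and the labels name no treatment other than the season. The labels used here give no age, sex, date or batch, so such differences and the season cannot be told apart. The number of a dolphin follows the order of deposition in its group.

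RNA helicases of the DEAD box and DEAH box families use ATP to open RNA duplexes or to pull proteins off RNA. DEAD box members mostly act on short local duplexes, while DEAH box members tend to move along a strand. Between them they serve each step in the life of an RNA, from splicing and export to translation, decay and the building of ribosomes. In neurons several of them sit in the granules that carry messenger RNA into dendrites, and changes in DDX3X or DHX30 cause developmental brain disorders in people.

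Values are the deposited normalised values, which are counts per library total with TMM scaling (TMM CPM). Log2 changes are bloom minus non-bloom of log2(value + 1), so the change of a low gene comes out too small. Adjusted p is the limma value with Benjamini-Hochberg adjustment over all 13548 genes tested, and under 0.05 counted as passing. The libraries held 7680050 to 15635292 recovered reads, and the 48 helicases together took 5901 to 64964 of these. Transcripts of the mitochondrial genome took 57.0%, 33.5% and 77.2% of the reads in bloom 5, 6 and 9, against 1.47% to 22.1% in the other 14 libraries. Results were therefore also computed without those 3 libraries. Pan-neuronal markers were present in every library, and 11 of the 12 on the list were found and tested. Their mean log2 level was 9.17 to 9.89 in non-bloom libraries, 8.68 to 9.49 in 6 bloom libraries and 7.26 to 8.99 in bloom 5, 6 and 9.

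In the bloom season 3 helicases fell, DHX36, DDX3X and DHX8, and 1 rose, DDX50. Of the 46 members that could be tested these 4 are 8.70%, and over all genes tested 9.16% passed, so the share was near the background. By direction, 3 of 46 fell against 4.69% of all genes, and 1 of 46 rose against 4.47%. The members' median log2 change was -0.06, with 25 negative and 21 positive, beside -0.0034 over all genes. The median size of the change, ignoring its sign, was 0.18 for the members and 0.32 over all genes. Sizes under 0.25 were found in 29 members, 63.0%, against 40.1% of all genes. Members and all genes were not matched for expression level, here or below. Without adjustment 14 members had p under 0.05, 30.4% against 35.4% of all genes. These were 10 lower, against 19.1% of all genes, and 4 higher, against 16.4%. No member had bloom and non-bloom libraries that did not overlap (0 of 46, where 0.155% of all genes were wholly lower and 0.502% wholly higher).

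The count moved with the tool, and so did the background. By edgeR 4 members passed, DDX3X, DHX36 and DHX8 lower and DDX39B higher, where 8.63% of all genes passed. DESeq2 called 4 higher and 6 lower members where 23.4% of all genes passed, and limma-voom with quality weights called 2 and 7 where 31.2% passed. Relative log expression scaling gave 1 higher and 5 lower against 9.87%, and no filter on low values gave 0 and 2 against 3.19%. With the pan-neuronal level as a covariate 0 members and 0.0221% of all genes passed by limma. When bloom 5, 6 and 9 were left out DHX36 alone passed by limma and 1 lower member by edgeR, where edgeR called 1.73% of all genes.

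**Figure D1:**
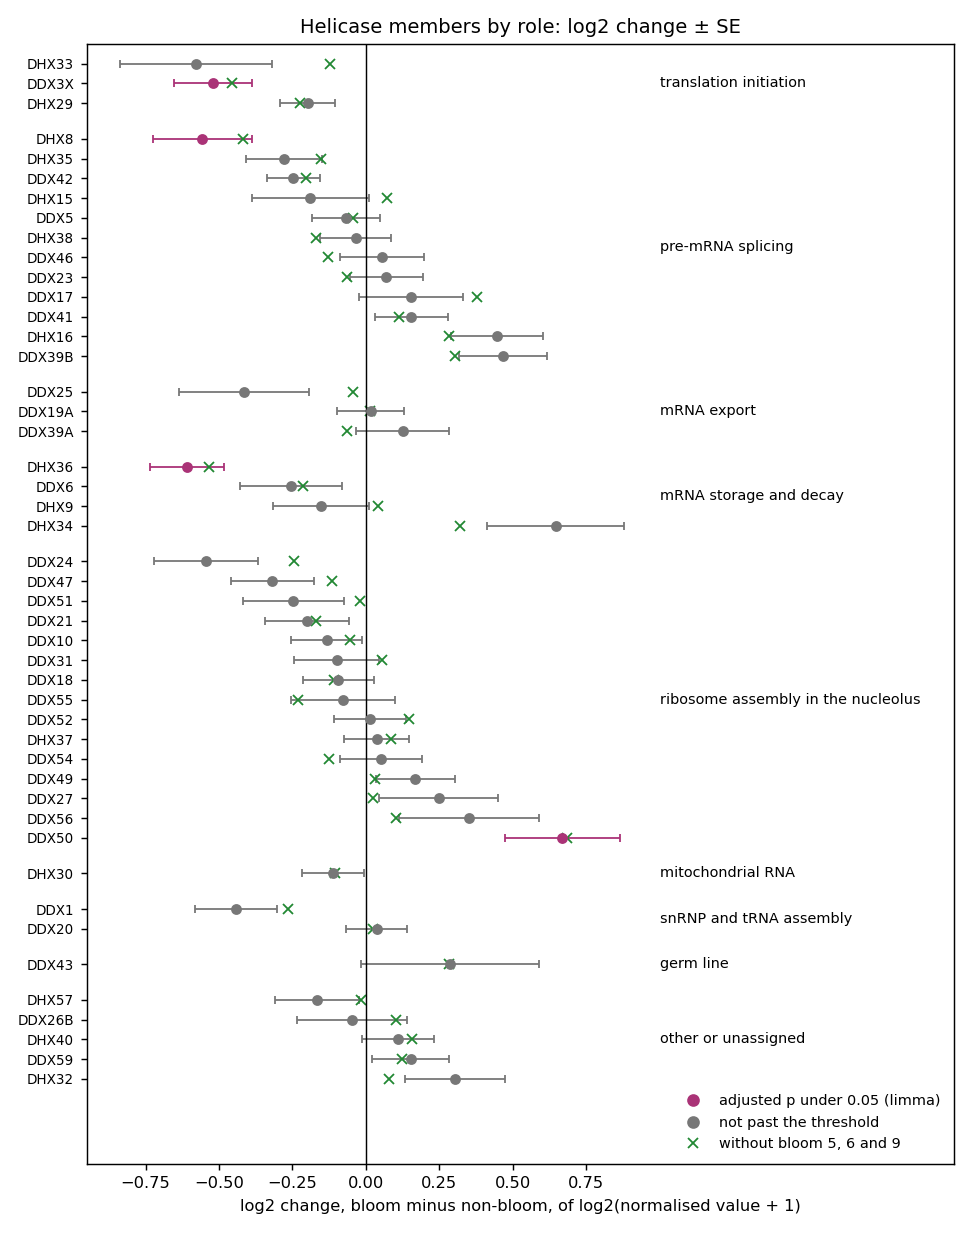
Log2 change (horizontal axis, bloom minus non-bloom, with SE) of the 46 tested helicases, one per row and grouped by role, with crosses for the fit without bloom 5, 6 and 9. DHX36, DDX3X and DHX8 lie left of 0 and DDX50 right of 0 past the threshold, and most others lie within 0.25 of 0.

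DHX36 unwinds G-quadruplexes, the stacked folds of guanine-rich RNA, and takes part in messenger RNA turnover and stress granules. The files place it on GeneScaffold_887, start 412711 and end 465100, in a build that the sources used here do not name. Its values in the non-bloom dolphins, in order from 1 to 8, were 59.1, 59.0, 68.5, 44.0, 63.4, 66.6, 68.6 and 63.4. In bloom dolphins 1 to 9 they were 48.9, 44.4, 37.9, 48.4, 28.5, 35.4, 38.4, 35.0 and 45.1. Every bloom dolphin lay below the non-bloom median, 5 of 9 lay below the lowest non-bloom value, and the groups overlapped through non-bloom 4. The mean was 61.6 ± 8.04 (SD, n = 8) in non-bloom and 40.2 ± 6.90 (SD, n = 9) in bloom dolphins, and the log2 change was -0.61 (SE 0.13, limma adjusted p = 0.0214). It was the one member that still passed without bloom 5, 6 and 9, at -0.53 (SE 0.12, limma adjusted p = 0.0317), where 2.34% of all genes passed. The call was lost without non-bloom 2 or without non-bloom 8, with limma adjusted p = 0.0513 and 0.0520, and the log2 changes there were -0.62 and -0.60. In those fits 61 and 66 of all genes passed, against 1241 with all libraries. With the pan-neuronal level as a covariate the log2 change was -0.46 (SE 0.13, limma adjusted p = 0.295). In bulk cortex fewer cells of a type and less RNA per cell cannot be told apart.

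DDX3X helps ribosomes scan messenger RNAs with structured 5′ ends, and the human gene lies on the X chromosome. In non-bloom dolphins 1 to 8 it was at 160, 198, 233, 179, 221, 209, 255 and 231. The bloom dolphins 1 to 9 were at 177, 164, 151, 189, 127, 165, 122, 122 and 110. All 9 bloom dolphins lay below the non-bloom median and 5 below the lowest non-bloom dolphin, which was non-bloom 1. The mean fell from 211 ± 31.0 (SD, n = 8) to 148 ± 28.0 (SD, n = 9), with a log2 change of -0.52 (SE 0.13, limma adjusted p = 0.0341). Without bloom 5, 6 and 9 it was -0.45 (SE 0.13, limma adjusted p = 0.0678). Leaving out any of non-bloom 2, 3, 5, 6, 7 and 8 and bloom 2, 5, 6 and 7 ended the call, where limma's adjusted p was 0.0509 to 0.0702 and the log2 change -0.54 to -0.48. Of all genes 61 to 564 passed in those fits, against 1241 with all libraries. With the pan-neuronal level as a covariate the change was -0.51 (SE 0.16, limma adjusted p = 0.321).

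The other 2 members with a role in starting translation did not pass. DHX29, which binds the small ribosomal subunit, was at 38.1 ± 4.28 (SD, n = 8) and 33.0 ± 1.80 (SD, n = 9), and all 9 bloom dolphins lay below the non-bloom median. Its log2 change was -0.20 (SE 0.09, limma adjusted p = 0.138), and -0.22 without bloom 5, 6 and 9. DHX33 was at 13.6 ± 2.15 and 9.82 ± 4.80, a log2 change of -0.58 (SE 0.26, limma adjusted p = 0.121) that was -0.12 without bloom 5, 6 and 9.

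**Figure D2:**
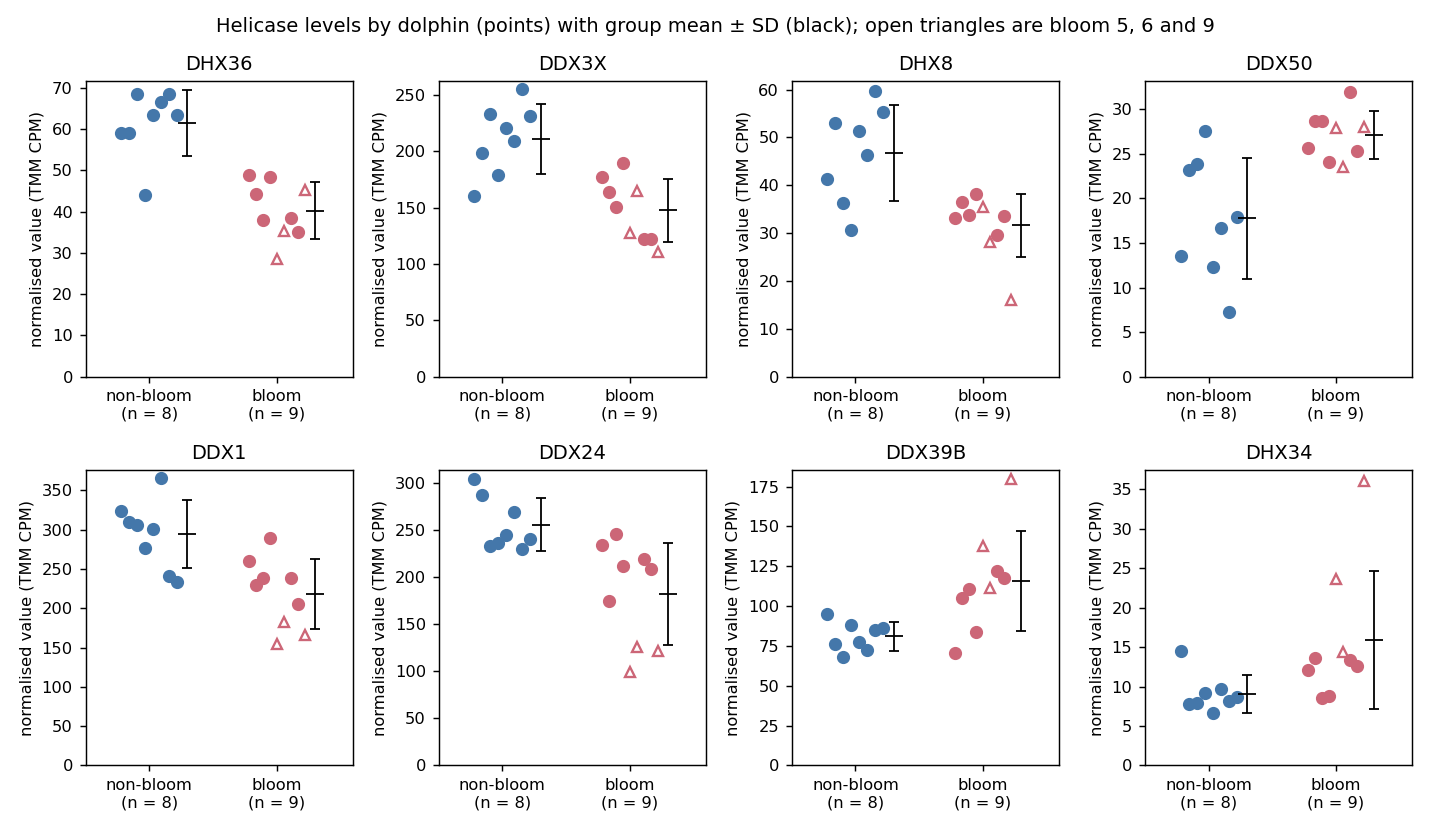
Normalised values (vertical axis, TMM CPM) of 8 helicases in each dolphin by season, with group mean and SD in black and open triangles for bloom 5, 6 and 9. DHX36, DDX3X and DHX8 sit lower and DDX50 higher in bloom, and in DDX1, DDX24 and DHX34 some open triangles sit apart from the filled points.

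Splicing helicases drive the spliceosome through its cycle, each at its own step. Of 12 members with this role 1 fell by limma, DHX8, and 6 had positive and 6 negative changes, with a median of 0.0093. DHX8 frees the finished messenger RNA from the spliceosome. In non-bloom dolphins 1 to 8 it was at 41.4, 53.1, 36.3, 30.8, 51.3, 46.4, 59.6 and 55.4. In bloom dolphins 1 to 9 it was at 33.2, 36.5, 33.7, 38.3, 35.4, 28.2, 29.6, 33.5 and 16.0. All 9 bloom dolphins were below the non-bloom median, and bloom 9, at 28 reads, was far below the others. The mean was 46.8 ± 9.96 (SD, n = 8) in non-bloom and 31.6 ± 6.64 (SD, n = 9) in bloom dolphins, and the log2 change was -0.56 (SE 0.17, limma adjusted p = 0.0475). The change was -0.42 (SE 0.14, limma adjusted p = 0.0986) without bloom 5, 6 and 9. The call was lost without any of non-bloom 1, 2, 3, 5, 6, 7 and 8 or bloom 2, 3, 5, 6 and 7, with limma adjusted p of 0.0543 to 0.0936 and log2 changes of -0.60 to -0.50. Of all genes 61 to 837 passed in those fits, against 1241 with all libraries.

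At other steps of splicing the values went both ways. DDX39B, which loads the branch point complex and also joins messenger RNA to its export factor, was at 67.8, 81.3 and 94.8 (lowest, median, highest) in non-bloom and at 70.6, 111 and 180 in bloom dolphins. Of the bloom dolphins 7 of 9 lay above the highest non-bloom dolphin, and bloom 1 lay within the non-bloom range below its median. The log2 change was 0.47 (SE 0.15, limma adjusted p = 0.0544), 0.0485 by edgeR, and 0.30 without bloom 5, 6 and 9. Limma passed it when bloom 1, 4 or 8 was left out, with adjusted p of 0.0184 to 0.0499. Among all genes 2895, 2316 and 2690 passed in those fits, against 1241 with all libraries. Its interval in the files also holds the small nucleolar RNA SNORD83, so reads of the 2 rows may not be fully apart. DHX16, which readies the spliceosome for the first cut, was at 24.5 ± 4.92 (SD, n = 8) and 33.9 ± 7.92 (SD, n = 9), a log2 change of 0.45 (SE 0.16, limma adjusted p = 0.0653). The change was 0.28 (SE 0.15, limma adjusted p = 0.261) without bloom 5, 6 and 9. DHX16 passed without bloom 1 or without bloom 8 at limma adjusted p of 0.0329 to 0.0443, where 2895 and 2690 of all genes passed. DDX42, a partner of the branch point complex, was at 120 ± 7.73 and 101 ± 9.14, with all 9 bloom dolphins below the non-bloom median and 6 below the lowest non-bloom dolphin. Its log2 change was -0.25 (SE 0.09, limma adjusted p = 0.0722), and -0.21 without bloom 5, 6 and 9.

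The remaining splicing members did not pass. DHX15, which takes spent spliceosomes apart, was at 72.2 ± 10.1 (SD, n = 8) and 66.3 ± 19.7 (SD, n = 9), and its log2 change of -0.19 (SE 0.20) became 0.07 without bloom 5, 6 and 9. The 6 others, DHX35, DHX38, DDX23, DDX41, DDX46 and DDX5, had log2 changes from -0.28 for DHX35 (SE 0.13, limma adjusted p = 0.133, and -0.15 without bloom 5, 6 and 9) to 0.16 for DDX41 (SE 0.12, limma adjusted p = 0.364). DDX5, a regulator of splicing and transcription, was at 515, 589 and 668 (lowest, median, highest) in non-bloom and 417, 581 and 640 in bloom dolphins. Its groups overlapped almost fully, with a log2 change of -0.07 (SE 0.12, limma adjusted p = 0.688).

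DDX17, the close paralog of DDX5, was at 78.3, 101 and 121 (lowest, median, highest) in non-bloom and 56.0, 115 and 161 in bloom dolphins. Its log2 change was 0.15 (SE 0.18, limma adjusted p = 0.538) with all libraries and 0.38 (SE 0.13, limma adjusted p = 0.106) without bloom 5, 6 and 9. The lowest bloom dolphin was bloom 9 and the highest bloom 2.

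DDX50 and DDX21 are paralogs of the nucleolus that act on ribosomal RNA. DDX50 rose. In non-bloom dolphins 1 to 8 it was at 13.5, 23.2, 23.8, 27.6, 12.3, 16.7, 7.29 and 18.0. The bloom dolphins 1 to 9 were at 25.6, 28.7, 28.7, 24.1, 27.9, 23.5, 31.9, 25.3 and 28.0. The bloom values were close together and all lay above the non-bloom median, while the non-bloom values were spread widely with non-bloom 7 lowest. The mean went from 17.8 ± 6.77 (SD, n = 8) to 27.1 ± 2.68 (SD, n = 9), with a log2 change of 0.67 (SE 0.20, limma adjusted p = 0.0453, and 0.0556 by edgeR). Without bloom 5, 6 and 9 the change was as large, 0.68 (SE 0.22, limma adjusted p = 0.0964). The call was lost without any of non-bloom 1, 2, 5, 6, 7 and 8 or bloom 2, 3, 5, 6, 7 and 9, with limma adjusted p of 0.0516 to 0.0834, and the smallest log2 change, without non-bloom 7, was 0.51. Of all genes 61 to 1118 passed in those fits, against 1241 with all libraries.

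**Figure D3:**
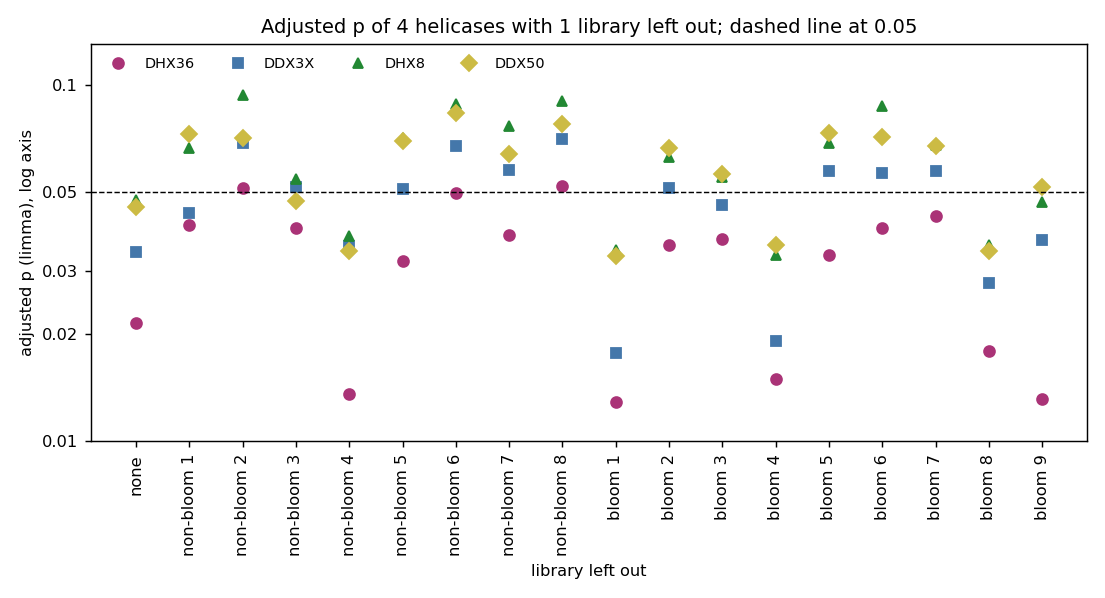
Adjusted p (vertical log axis, limma) of DHX36, DDX3X, DHX8 and DDX50 with all libraries and with each library left out in turn (horizontal axis), and a dashed line at 0.05. DHX36 lies below the line in 15 of 17 fits, DDX3X in 7, DHX8 in 5 and DDX50 in 5. The number of all genes passing in these fits runs from 61 to 2895, against 1241 with all libraries.

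The ratio of DDX21 to DDX50 reads within a library does not depend on how libraries are scaled. In non-bloom dolphins 1 to 8 the log2 ratio was 1.09, 0.92, 0.92, 0.47, 1.76, 1.20, 2.96 and 1.41. In bloom dolphins 1 to 9 it was 0.81, 0.67, 0.12, 0.83, 0.20, 0.92, -0.09, 0.31 and 0.06. All 9 bloom dolphins lay below the non-bloom median and 5 below the lowest non-bloom dolphin. The mean log2 ratio was 1.34 ± 0.76 (SD, n = 8) and 0.43 ± 0.38 (SD, n = 9), a difference of -0.91 (two-sided exact permutation test over 24310 splits, p = 0.00202, adjusted p = 0.00605 over 3 ratios). The difference was -0.90 without bloom 5, 6 and 9, and -1.04 to -0.68 with 1 library left out, and it passed each time. DDX21 by itself was at 42.5 ± 8.15 and 36.9 ± 7.35, a log2 change of -0.20 (SE 0.14, limma adjusted p = 0.309).

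For the export helicases DDX39A and DDX39B, which share most of their sequence, the same ratio was lower in bloom. The log2 ratio was -2.55, -2.06 and -1.60 (lowest, median, highest) in non-bloom and -2.82, -2.36 and -2.15 in bloom dolphins, and all 9 bloom dolphins were below the non-bloom median. The difference was -0.34 (exact permutation test, p = 0.0123, adjusted p = 0.0185), and -0.37 without bloom 5, 6 and 9. The sources used here do not say how reads that fit both genes were counted, so the level of this ratio is uncertain. For DDX5 to DDX17 the difference was -0.22 (exact permutation test, p = 0.227, adjusted p = 0.227). Without bloom 5, 6 and 9 it was -0.43 (exact permutation test, adjusted p = 0.0293), and each of those 3 libraries had a higher ratio than the other 6 bloom libraries. Unlike single genes, the ratios were adjusted over 3 tests only, with no background of other gene pairs. Their adjusted p therefore cannot be ranked beside those of single genes.

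**Figure D4:**
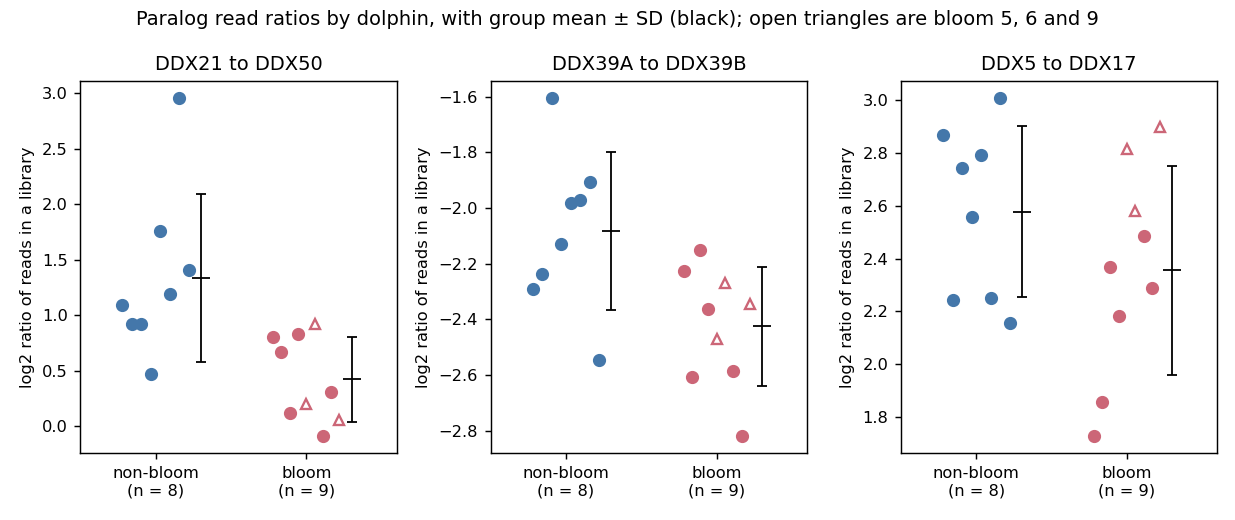
Log2 ratio of reads (vertical axis) for DDX21 to DDX50, DDX39A to DDX39B and DDX5 to DDX17 in each dolphin by season, with group mean and SD in black and open triangles for bloom 5, 6 and 9. The first 2 ratios are lower in bloom by 0.91 and 0.34, and in the third the open triangles lie above the filled bloom points.

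The nucleolus held the largest role group, with 15 members measured and tested, of which 1 rose (DDX50) and none fell by limma. DDX24, a nucleolar helicase, was at 229, 243 and 304 (lowest, median, highest) in non-bloom and 99.3, 208 and 245 in bloom dolphins. Of the bloom dolphins 7 of 9 were below the lowest non-bloom dolphin, and bloom 5, 6 and 9 were the lowest of all. The log2 change was -0.54 (SE 0.18, limma adjusted p = 0.0549), and -0.24 (SE 0.10, limma adjusted p = 0.165) without those 3. Limma passed it when bloom 1, 3, 4 or 8 was left out, with adjusted p of 0.0310 to 0.0498. Among all genes 2895, 837, 2316 and 2690 passed in those fits, against 1241 with all libraries. The 13 others ranged from -0.32 for DDX47 (SE 0.14, limma adjusted p = 0.117) to 0.35 for DDX56 (SE 0.24, limma adjusted p = 0.290). These 2 were at -0.12 and 0.10 without bloom 5, 6 and 9, where the 13 ranged from -0.23 for DDX55 to 0.15 for DDX52. DDX27 was at 125 ± 23.0 (SD, n = 8) and 159 ± 83.7 (SD, n = 9), and its log2 change of 0.25 (SE 0.20) was 0.02 without bloom 5, 6 and 9. DDX52, DHX37 and DDX54 had log2 changes of 0.01, 0.04 and 0.05. The rest lay between, at -0.25 for DDX51 (-0.02 without bloom 5, 6 and 9), -0.13 for DDX10, -0.10 for DDX31, -0.09 for DDX18, -0.08 for DDX55 and 0.17 for DDX49.

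Among the helicases listed here under messenger RNA storage and decay, DHX36 fell and the other 3 did not pass. DDX6, which binds decapping factors in P-bodies, was at 39.8, 58.6 and 86.9 (lowest, median, highest) in non-bloom and 35.7, 47.4 and 72.5 in bloom dolphins, a log2 change of -0.26 (SE 0.17, limma adjusted p = 0.288). DHX9, which unwinds long duplexes such as inverted repeats, was at 69.7 ± 7.05 (SD, n = 8) and 64.6 ± 16.2 (SD, n = 9). Its log2 change was -0.15 (SE 0.16, limma adjusted p = 0.511), and 0.04 without bloom 5, 6 and 9. DHX34, a factor of nonsense-mediated decay, was at 6.59, 8.38 and 14.5 in non-bloom and 8.51, 13.3 and 36.0 in bloom dolphins, so all 9 bloom dolphins lay above the non-bloom median. Bloom 9 was the highest. The log2 change of DHX34 was 0.65 (SE 0.23, limma adjusted p = 0.0713) and 0.32 without bloom 5, 6 and 9. It passed without bloom 4 (limma adjusted p = 0.0427), where 2316 of all genes passed, against 1241 with all libraries.

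DDX1, a member of the tRNA ligase complex that is also found in neuronal RNA granules, was at 233, 303 and 366 (lowest, median, highest) in non-bloom and 154, 230 and 289 in bloom dolphins. All 9 bloom dolphins lay below the non-bloom median and 5 below the lowest non-bloom dolphin. The log2 change was -0.44 (SE 0.14, limma adjusted p = 0.0522), and -0.27 (SE 0.11, limma adjusted p = 0.183) without bloom 5, 6 and 9. It passed by limma without bloom 1, 4 or 8, with adjusted p of 0.0292 to 0.0466, where 2895, 2316 and 2690 of all genes passed. DDX20, the helicase of the SMN complex that builds spliceosomal particles, was at 28.1 ± 2.70 (SD, n = 8) and 28.9 ± 3.30 (SD, n = 9), with a log2 change of 0.04 (SE 0.10, limma adjusted p = 0.817).

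DHX30, which helps build the mitochondrial ribosome, varied little in the non-bloom dolphins. It was at 165, 188 and 195 (lowest, median, highest) there and at 132, 171 and 227 in bloom dolphins, with bloom 5 lowest and bloom 9 highest. The log2 change was -0.11 (SE 0.10, limma adjusted p = 0.445), and -0.10 without bloom 5, 6 and 9. Bloom 5, 6 and 9, with mitochondrial transcript shares of 57.0%, 33.5% and 77.2%, had DHX30 values of 132, 164 and 227. Whether DHX30 follows that share was not tested.

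Export and germ-line helicases completed the family. DDX19A, which remodels messenger RNA at the nuclear pore, was at 22.2 ± 2.12 (SD, n = 8) and 22.6 ± 3.31 (SD, n = 9), a log2 change of 0.02 (SE 0.11), and DDX39A changed by 0.12 (SE 0.16, limma adjusted p = 0.579). DDX25, best known from the testis, had values in every library, 26.7 ± 5.19 in non-bloom and 20.9 ± 7.97 in bloom dolphins. Its log2 change was -0.41 (SE 0.22, limma adjusted p = 0.183) and -0.04 without bloom 5, 6 and 9. DDX43, known from testis and tumours, had 9 to 168 reads in each of the 17 libraries, at values of 5.53 ± 3.41 and 6.87 ± 3.35, and a log2 change of 0.29 (SE 0.30, limma adjusted p = 0.504).

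DDX4, the germ-cell helicase also called Vasa, had 46 reads in all, spread over 11 of the 17 libraries with at most 7 in any one. DDX53 had 0 reads in each library, which allows a value of up to 0.158 to 1.71 depending on the library, for counting error only. Both were below the filter on low values and were the 2 members not tested. Members of less certain role were DHX57, DHX40, DHX32, DDX59 and the Integrator paralog DDX26B, with log2 changes of -0.17, 0.11, 0.30, 0.15 and -0.05. None of these 5 passed by limma, and the smallest adjusted p was that of DHX32, 0.202. Its change was 0.08 and that of DHX57 -0.02 without bloom 5, 6 and 9. DHX32 overlaps the gene BCCIP in the files, so its reads may be shared.

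The member values in the heat map spread most in bloom 5, 6 and 9. The median size of a member's deviation from its non-bloom mean was 0.08 to 0.23 on the log2 scale in non-bloom libraries, 0.15 to 0.21 in the 6 other bloom libraries and 0.33 to 0.66 in bloom 5, 6 and 9. Over all genes tested these deviations were 0.14 to 0.27, 0.21 to 0.35 and 0.63 to 0.83. In bloom 9 28 of 46 members deviated by more than 0.5, and this library held 5901 helicase reads, the fewest. The part of depth, mitochondrial share or neuronal content in these deviations was not tested. Without bloom 5, 6 and 9, 38 of 46 members kept the sign of their change, and 34 of 46 had a smaller change. Changes were smaller over all genes too. Their median size went from 0.32 to 0.19, and that of the members from 0.18 to 0.12.

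**Figure D5:**
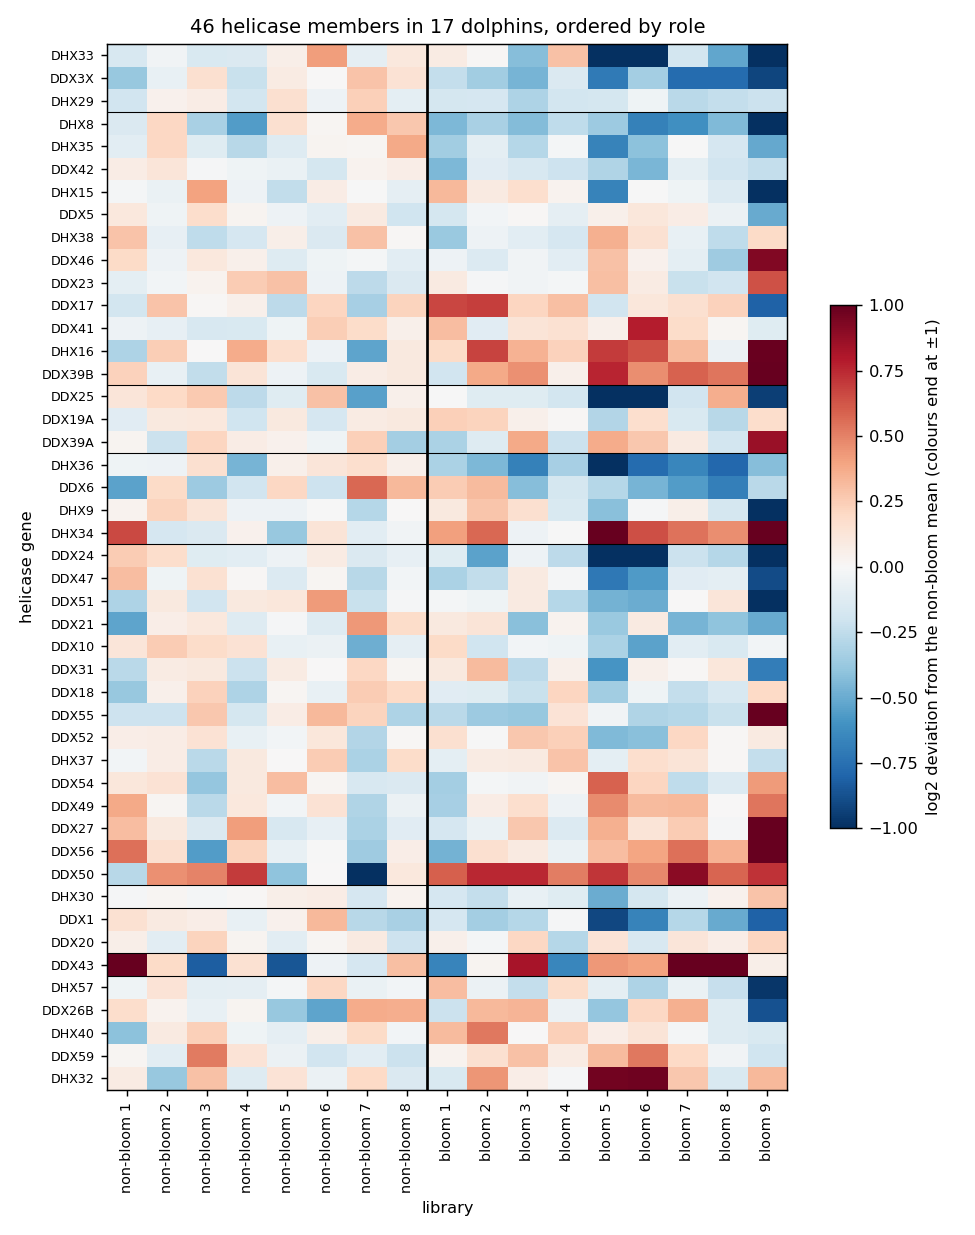
Log2 deviation of each of 46 helicases (rows, by role) from its non-bloom mean in the 17 libraries (columns, non-bloom left of the line), red above and blue below, with colours ending at 1. Strong colours are frequent in bloom 5, 6 and 9, DDX43 varies in both groups, and the row of DDX50 is red across all 9 bloom libraries. The rows of DHX36, DDX3X, DHX8, DDX1, DDX24, DDX42, DHX29 and DHX35 are below the non-bloom mean in all 9, some of them only faintly.

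The genes that work with these helicases were read from 9 lists holding 157 genes, of which 145 were tested. Of these 10 passed by limma, 6 higher and 4 lower, or 6.90% against 9.16% of all genes, and edgeR called 9. Of 26 spliceosome partners 2 rose. PRPF3, a protein of the U4/U6 particle, was at 24.7 ± 3.38 (SD, n = 8) in non-bloom and 35.6 ± 4.30 (SD, n = 9) in bloom dolphins and a log2 change of 0.52 (SE 0.11, limma adjusted p = 0.0238). SNRNP70, the U1 particle protein, went from 130 ± 19.9 to 202 ± 55.4, a log2 change of 0.61 (SE 0.15, limma adjusted p = 0.0299). For both, every bloom dolphin lay above every non-bloom dolphin, as in 0.502% of all genes. Both passed without bloom 5, 6 and 9 (limma adjusted p = 0.0424 and 0.0431), where 2.34% of all genes passed.

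Of 15 exon junction and export partners 2 rose. THOC1, a core protein of the complex that DDX39B joins, was at 19.5 ± 4.86 (SD, n = 8) in non-bloom and 38.7 ± 11.0 (SD, n = 9) in bloom dolphins and a log2 change of 0.94 (SE 0.17, limma adjusted p = 0.0133). NXT1, a partner of the main messenger RNA exporter, changed by 0.75 (SE 0.22, limma adjusted p = 0.0455). The list's median log2 change was 0.17, against -0.0034 over all genes, with 11 positive and 4 negative. Without bloom 5, 6 and 9, 1 gene of this list passed by limma, where 2.34% of all genes passed.

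Of 13 partners in translation initiation 1 rose, the factor subunit EIF3E, by 0.51 (SE 0.15, limma adjusted p = 0.0439). Of 19 decapping and granule partners 1 fell, G3BP2, a stress granule protein, with values of 191 ± 30.8 (SD, n = 8) in non-bloom and 101 ± 53.4 (SD, n = 9) in bloom dolphins and a log2 change of -1.08 (SE 0.27, limma adjusted p = 0.0315). It changed by -0.69 (limma adjusted p = 0.0759) without bloom 5, 6 and 9. Among 17 other RNA helicases 1 fell, YTHDC2, by -0.84 (SE 0.24, limma adjusted p = 0.0420, and 0.0572 by edgeR). EIF4A2, a helicase of translation initiation that is abundant in brain, was at 940 ± 139 and 638 ± 194, a log2 change of -0.61 (SE 0.19, limma adjusted p = 0.0517). Of 22 nucleolar partners RRP12 fell, by -0.43 (SE 0.12, limma adjusted p = 0.0429). Of 13 mitochondrial RNA granule partners FASTKD1 rose by 0.53 and GRSF1 fell by 0.42 on the log2 scale (limma adjusted p = 0.0421 and 0.0439). None of 9 SMN and tRNA ligase partners or 13 microprocessor and silencing partners passed by limma or by edgeR, and at their smallest p GEMIN6 and DROSHA had log2 changes of 0.69 and 0.38 (limma adjusted p = 0.0718 and 0.0559). In the translation initiation, granule, other helicase, nucleolar, mitochondrial, SMN and silencing lists, 0 genes passed by limma without bloom 5, 6 and 9. Over all genes 2.34% passed in that fit.

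Cell type markers moved beside these results. All 11 pan-neuronal markers tested had negative changes, with a median of -0.68, and SYT1 passed. All 9 astrocyte and all 9 oligodendrocyte markers had positive changes, with medians of 1.27 and 0.70, of which 0 and 2 passed by limma and 2 and 1 by edgeR. Their summed values ran from 323 to 1837 and 1647 to 7876 in non-bloom libraries, and reached 6862 and 19085 in bloom 5, 6 and 9. In the 6 other bloom libraries these sums ran from 401 to 4355 and 4262 to 8567. Of 6 microglial markers tested 5 had negative changes (median -1.17), and of 9 endothelial markers 8 had positive changes (median 0.64), of which 1 passed. Neither red cell marker tested, HBB and ALAS2, passed by limma or edgeR, and the summed level of the 3 found ran from 10.1 to 91.3 in non-bloom and 0.791 to 126.9 in bloom libraries. No marker that was found had 0 reads in all libraries. When bloom 5, 6 and 9 were left out the median was -0.35 for pan-neuronal, 0.64 for astrocyte, 0.64 for oligodendrocyte, -1.05 for microglial and 0.31 for endothelial markers, and the astrocyte marker SLC1A2 was at -0.04. The part of cell composition in the helicase changes was not tested. The covariate fits given above cannot tell it apart from season, because the pan-neuronal level itself averaged 9.52 in non-bloom and 8.79 in bloom libraries.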

How the data were processed

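Per the labels, total RNA of frozen dolphin cortex was made into mRNA libraries. Trim Galore 0.6.1 and STAR 2.5.2a were used, per the submitters' processing notes. Which counter, build and annotation the authors used is not given in these sources. The deposited signal is a normalised value for each gene in each library. Here 100% of nonzero values were whole multiples of the value of 1 read within 0.01, and the divisors matched TMM factors recomputed here, so whole reads were recovered.

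The filterByExpr function of edgeR, given the groups, a minimum count of 10 and a minimum total of 15, left 13548 genes. The main test was limma-trend, fitted to all 17 libraries on log2(value + 1) with the season alone as a term. Log2 ratios of paralog reads were tested by two-sided exact permutation over samples. Each library came from a different dolphin, per the labels. The limma fit was also run on simulated counts with known changes. Members, gene lists and tests were chosen with earlier results of these data known. Members named in full are those that passed, 3 higher and 3 lower of smallest p that did not pass, and DDX1, DDX3X, DDX5, DDX6, DDX17, DDX39B, DHX9, DHX15, DHX30 and DHX36. Other members, and the partner genes given beside a list's count, are named to account for the family, with up to 3 partners a list by smallest p. SYT1, SLC1A2, HBB and ALAS2 were named after their values were seen.

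Alternatives were relative log expression scaling, TMM without mitochondrial genes, no filter, at least 1 in at least 8 libraries, a pseudocount of 0.1, edgeR, DESeq2, limma-voom with quality weights, a pan-neuronal covariate (11 markers), leaving out each library, and leaving out those over 30% mitochondrial. Symbols of 46 of 48 members were found in the RefSeq gene table of assembly mTurTru1.mat.Y, whose coordinates were not used. The software was DESeq2 1.42.0, edgeR 4.0.16 and limma 3.58.1 under R 4.3.3.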

Additional observations from a re-analysis of the deposited data

Results flagged for a closer look

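In 38 groups of dolphins examined for the named helicases and the ratios, 5 had a lowest library standing apart from the rest. Its gap was 0.53 to 0.66 of the group's range on the log2 scale. By chance about 1 in 20 separate groups is flagged. These groups share the same 17 libraries, so their count cannot be compared with that rate. In bloom dolphins this was bloom 9 for DDX5 at 417, DHX8 at 16.0 and DHX9 at 29.7, the library with the fewest helicase reads. In non-bloom dolphins it was non-bloom 4 for DHX36 at 44.0 and non-bloom 7 for DHX30 at 165.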

How the results depend on the processing

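The count of helicases that passed, 1 higher and 3 lower, moved with the processing. Higher members numbered 0 with no filter, with the pan-neuronal covariate, and without bloom 5, 6 and 9 by limma or edgeR (the latter fit was added after seeing the data), 4 by DESeq2 and 2 by limma-voom with quality weights. Lower members numbered 5 with relative log expression scaling, 6 by DESeq2, 7 by limma-voom, 0 with the covariate, and 1 without bloom 5, 6 and 9 by limma or edgeR. With 1 library left out they ran from 0 to 3 higher and 0 to 5 lower. Over the same fits the number of all genes passing, 1241 with all libraries, ran from 61 to 2895. It was 560 with no filter, 3 with the covariate, 320 by limma and 237 by edgeR without bloom 5, 6 and 9, 3170 by DESeq2 and 4223 by limma-voom. The cause was not tested. Without bloom 5, 6 and 9 the DDX5 to DDX17 difference of -0.43 passed, while the other 2 ratios passed in each setting run. The ratios were adjusted over 3 tests and not over all genes. Of the 16 members named in full, none that passed changed sign in the 28 settings. DHX9, DHX15 and DHX30, which did not pass, changed sign in 6 of 448 values. Scaling left the median of all genes within 0.1. No paired analysis was possible because the labels give each dolphin its own number and no number joins the groups. Depth limited bloom 9 most, where DHX8 rested on 28 reads and DHX36 on 79.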
